A study of Homo sapiens with 6 samples.

Results

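The CEACAM genes described here are CEACAM1, CEACAM5, CEACAM6, CEACAM7 and CEACAM19, as measured in LS174T, an established human colon adenocarcinoma line. They were chosen by name: every probe set that the platform annotation assigns to 1 of these 5 genes was taken, whatever its value, which gave 13 of the 54674 probe sets of the array. A probe set is a group of short probes that together report 1 transcript or a group of related transcripts. The cultures received either the vehicle DMSO or CompE at 250 nM for 48 h, with 3 separate cultures and 3 arrays per condition. All cultures were of this single line, with no genetic change named in the labels. The labels name the agent only as CompE, commonly short for Compound E. Compound E blocks gamma-secretase, which cuts Notch receptors in the membrane and so frees their intracellular domain. A series of 1 line cannot show whether LS174T holds more CEA than other lines, so the values below describe this line only.

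CEACAM proteins are cell surface glycoproteins of the immunoglobulin superfamily that bind one another between neighbouring cells and serve as docking sites for several bacteria. CEACAM5 is carcinoembryonic antigen (CEA), the blood marker used to follow colorectal cancer. CEACAM5, CEACAM6 and CEACAM7 are held in the outer membrane by a glycosylphosphatidylinositol (GPI) anchor, while CEACAM1 spans the membrane and carries inhibitory signalling motifs in its cytoplasmic tail. In normal colon these proteins lie on the apical surface of mature epithelial cells. CEACAM5 and CEACAM6 are often raised in colorectal tumours, whereas CEACAM7 and CEACAM1 are often reduced. CEACAM19 is a more distant, transmembrane member about which less is known.

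CEACAM7, CEACAM5 and CEACAM6 stand next to one another, in that order, in the RefSeq gene table for chromosome 19, with CEACAM7 directly before CEACAM5 and CEACAM6 directly after it. Among the pairs of genes compared below, CEACAM5 and CEACAM6 had the largest difference of change, though no pair could be called. For that reason the stretches before their start sites are printed. Each is the 250 bases before the RefSeq start site in build GRCh38.p14, both on the plus strand, at chr19:41708376-41708625 for CEACAM5 and chr19:41755280-41755529 for CEACAM6. Capitals mark exact matches, on either strand, to the letters CACGTG (an E-box, as bound by USF factors), TGGGAA (the core of the site of RBPJ, the DNA-binding partner of Notch), GGGCGG (a GC box) and TTTATG (a CDX site); no marked matches overlap.
CEACAM5: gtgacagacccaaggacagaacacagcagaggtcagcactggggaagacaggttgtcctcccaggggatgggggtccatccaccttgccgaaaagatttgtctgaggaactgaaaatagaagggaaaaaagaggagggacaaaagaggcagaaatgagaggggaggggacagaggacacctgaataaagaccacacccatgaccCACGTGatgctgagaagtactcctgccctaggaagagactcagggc
CEACAM6: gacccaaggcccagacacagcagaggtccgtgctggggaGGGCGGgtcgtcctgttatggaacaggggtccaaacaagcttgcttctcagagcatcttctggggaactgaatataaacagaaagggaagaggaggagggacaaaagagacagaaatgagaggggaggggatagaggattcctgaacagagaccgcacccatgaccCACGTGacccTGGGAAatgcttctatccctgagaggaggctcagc

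Over the aligned bases these stretches were 78.1% identical (189 of 242 positions), and the 4 genes found in the promoter table (CEACAM1, CEACAM5, CEACAM6 and CEACAM7) were 70.5% to 84.0% identical over their 6 pairs. Both printed stretches hold the E-box, which ends 41 bases before the start site of CEACAM5 and 40 bases before that of CEACAM6. Among all 35116 start-site windows of this length, 6.34% held the E-box, 20.8% the RBPJ core, 42.6% the GC box and 9.64% the CDX site. The RBPJ core occurred once each in the windows of CEACAM6, CEACAM1 and CEACAM7, and a GC box in those of CEACAM6 and CEACAM1. A match of letters is a description of the sequence and not a measured binding site.

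The 6 arrays were alike in overall brightness as deposited, with median intensities between 36.9 and 38.6. The authors had already scaled them between arrays, so this does not show how alike the hybridisations were. All 12 markers of colon epithelium on the list used, such as EPCAM, KRT8, VIL1 and CDX2, lay above the background of 45.7, the 95th percentile of 27 probe sets for Bacillus transcripts that human RNA does not hold. Of 13 granulocyte markers, which matter here because granulocytes carry CEACAM8, CEACAM3 and CEACAM6, 3 lay above that level (CAMP, CEACAM3 and CSF3R), while CEACAM8, ELANE and MPO did not; the summed intensity of the list was 344 to 387 in DMSO and 351.4 to 359.9 in CompE. Among other leukocyte markers 2 of 10 lay above it (CD14 and LYZ), with sums of 1684 to 2032 in DMSO and 1361 to 1613 in CompE, and PTPRC, the pan-leukocyte marker, did not. Most of these sums came from LYZ alone, which read 1468, 1738 and 1536 in DMSO and 1324, 1124 and 1363 in CompE. LYZ did not pass (adjusted p = 0.158 by limma). Among fibroblast and endothelial markers 5 of 12 lay above background, with sums of 543 to 689 and 576 to 613; KDR, with the smallest p of that list, was below background in both groups (adjusted p = 0.163 by limma). Some measures of the arrays moved with the condition. The ratio of the 3' to the 5' probe set of ACTB, a measure of RNA integrity, averaged 1.44 ± 0.0201 over the DMSO arrays and 1.51 ± 0.0193 over the CompE arrays (SD, n = 3; two-sided exact permutation p = 0.1, the smallest that 3 against 3 can give). The hybridisation controls were 0.14 log2 units brighter in CompE (exact permutation p = 0.1). Their part in the results below was not tested, other than by rescaling on the hybridisation controls.

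None of the CEACAM probe sets passed the test between CompE and DMSO. CEACAM6 came closest: both of its probe sets were dimmer in every CompE array than in any DMSO array, at 81.6% and 77.6% of the DMSO level. CEACAM5, its neighbour, was at 108.6% of the DMSO level by its bright probe set, a difference within the spread of the arrays. The 4 CEACAM1 probe sets above background and the CEACAM19 probe set had overlapping groups, and CEACAM7 was not above background in either condition. Of the 13 probe sets, 11 passed the filter on dim probe sets and were tested; the remaining 2 belong to CEACAM7. By limma with Benjamini-Hochberg adjustment over all 26962 probe sets tested, 0 of the 11 had an adjusted p under 0.05, where 4.28% of all probe sets did: 2.72% (734) were higher and 1.55% (419) lower in CompE. At an unadjusted p under 0.05 there were 3 of 11, against 21.9% of all probe sets. Both CEACAM6 probe sets were lower, as were 9.39% of all at that level, and the dim CEACAM5 probe set was higher, as were 12.5%. The groups did not overlap for these same 3 probe sets, against 29.7% of all (16.6% higher and 13.1% lower in CompE). Shares of 3 in 11 are near these backgrounds and are not a result about the family. The median log2 change of the 11 was -0.05, beside 0.01 over all probe sets tested.

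**Figure D1:**
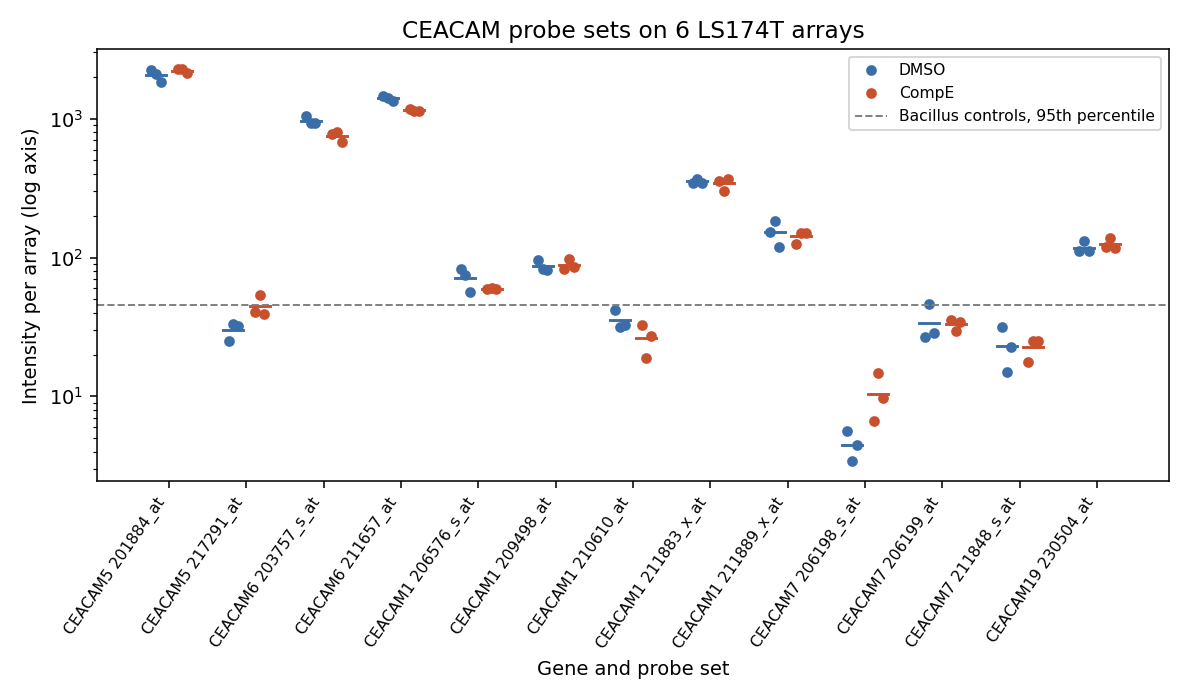
Intensity on each of the 6 arrays (vertical log axis) for the 13 probe sets of the 5 CEACAM genes, with DMSO in blue, CompE in orange, a bar at each group's mean and a dashed line at the background of 45.7. The points of the 2 CEACAM6 probe sets separate by condition, whereas those of CEACAM5 201884_at and of all CEACAM1 probe sets overlap; 5 probe sets have means below the line in both conditions.

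CEACAM5 encodes CEA itself. Its probe set 201884_at read 2233, 2086 and 1839 in the DMSO arrays and 2278, 2269 and 2121 in the CompE arrays. The groups overlap, because DMSO replicate 1 is brighter than CompE replicate 3, and the lowest DMSO array is replicate 3. The means were 2052 ± 199 and 2223 ± 87.8 (SD, n = 3 each), a log2 change of 0.12 with a 95% confidence interval of -0.10 to 0.33 (limma adjusted p = 0.485). On the scale of intensities the interval runs from 93.5% to 126.1% of the DMSO level. Rescaled on the hybridisation controls the value was -0.02, so its sign is not fixed.

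The other CEACAM5 probe set, 217291_at, read 24.9, 32.9 and 32.0 in DMSO and 40.8, 54.1 and 38.9 in CompE. The groups did not overlap, yet the group means of 29.9 and 44.6 both lie below the background of 45.7, so no fold is given. Its log2 difference of 0.57 did not pass (limma adjusted p = 0.123). What this probe set measures in LS174T is uncertain, since the bright probe set of the same gene gave 0.12. The difference between these probe sets within arrays was 0.45 log2 units between the conditions (exact permutation p = 0.1).

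CEACAM6, a GPI-anchored member that is also found on granulocytes and on tumour epithelium, had the smallest p among the CEACAM probe sets. Probe set 211657_at read 1460, 1416 and 1349 in DMSO and 1166, 1133 and 1144 in CompE. Every CompE array lies below every DMSO array, and the CompE arrays are close together. The means were 1408 ± 55.9 and 1148 ± 16.9 (SD, n = 3 each), a log2 change of -0.29 ± 0.06 (SE), with a 95% confidence interval of -0.43 to -0.15. The adjusted p was 0.0506 (limma, unadjusted p = 0.00217), just outside the threshold of 0.05.

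The second CEACAM6 probe set, 203757_s_at, read 1050, 930.1 and 932 in DMSO and 779, 799 and 683 in CompE. These groups do not overlap either, and CompE replicate 3 is the lowest array. The means were 971 ± 68.4 and 754 ± 62.1 (SD, n = 3 each), a log2 change of -0.37 ± 0.09 (SE) with an adjusted p of 0.0843 (limma). The probe sets differed from each other by 0.07 log2 units in their change (exact permutation p = 0.5).

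**Figure D2:**
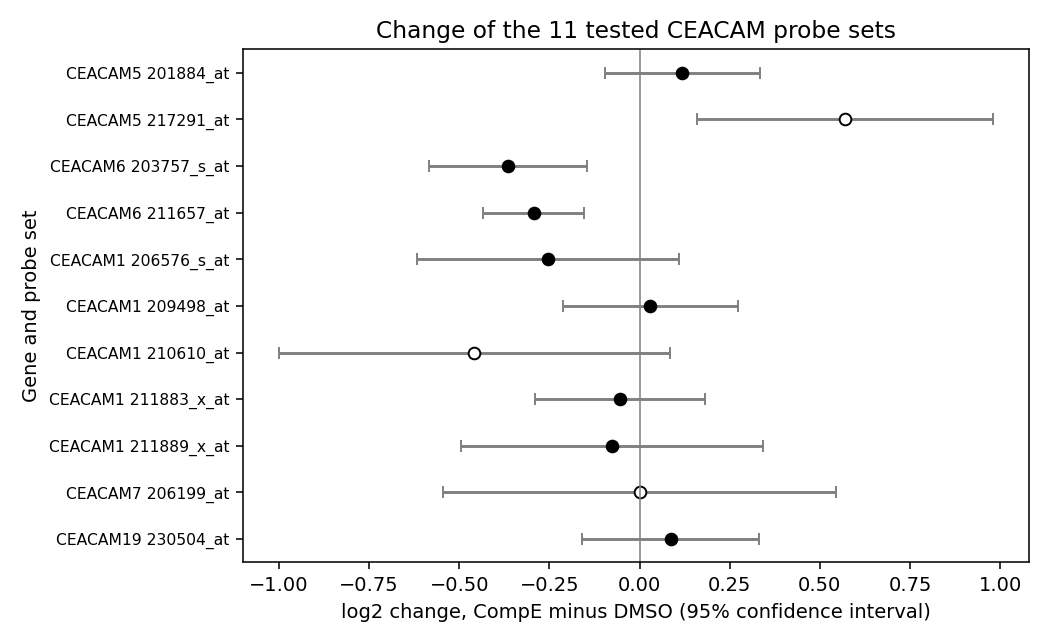
Log2 change of the 11 tested probe sets, CompE minus DMSO, with 95% confidence intervals from limma; open circles mark probe sets whose means lay below background in both conditions. The intervals of both CEACAM6 probe sets lie below 0 and that of the dim CEACAM5 probe set above it, although none of the 3 passed after adjustment (lowest adjusted p 0.0506).

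The call for CEACAM6 depended on how many features were tested, how the arrays were scaled, the pseudocount and the variance model. Probe set 211657_at passed under 8 of 16 alternatives. With only the brightest probe set per gene tested (14308 genes) its adjusted p was 0.0306, and with the lowest 60% in place of the lowest 40% of probe sets filtered out it was 0.0156. With no filter it was 0.163. With the same probe sets and scaling, a trend and robust eBayes gave 0.00055 for 211657_at and 0.0018 for 203757_s_at by limma, and a pseudocount of 16 gave 0.0404 and 0.0643. It passed in none of the 6 fits that left out 1 array, where adjusted p ran from 0.1096 to 0.151 and the log2 change from -0.32 to -0.27. Probe set 203757_s_at passed under 3 of 14 alternatives and in none of the fits that left out an array. The direction was negative for both probe sets under every alternative run, but only the rescalings of arrays could have turned it. The filters, the replicate block and the variance models leave the estimate unchanged. Since the groups do not overlap, neither the pseudocount nor leaving out an array can change the sign. Rescaled on the hybridisation controls, which moved the median change of all probe sets to -0.13, the values were -0.44 and -0.51.

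**Figure D3:**
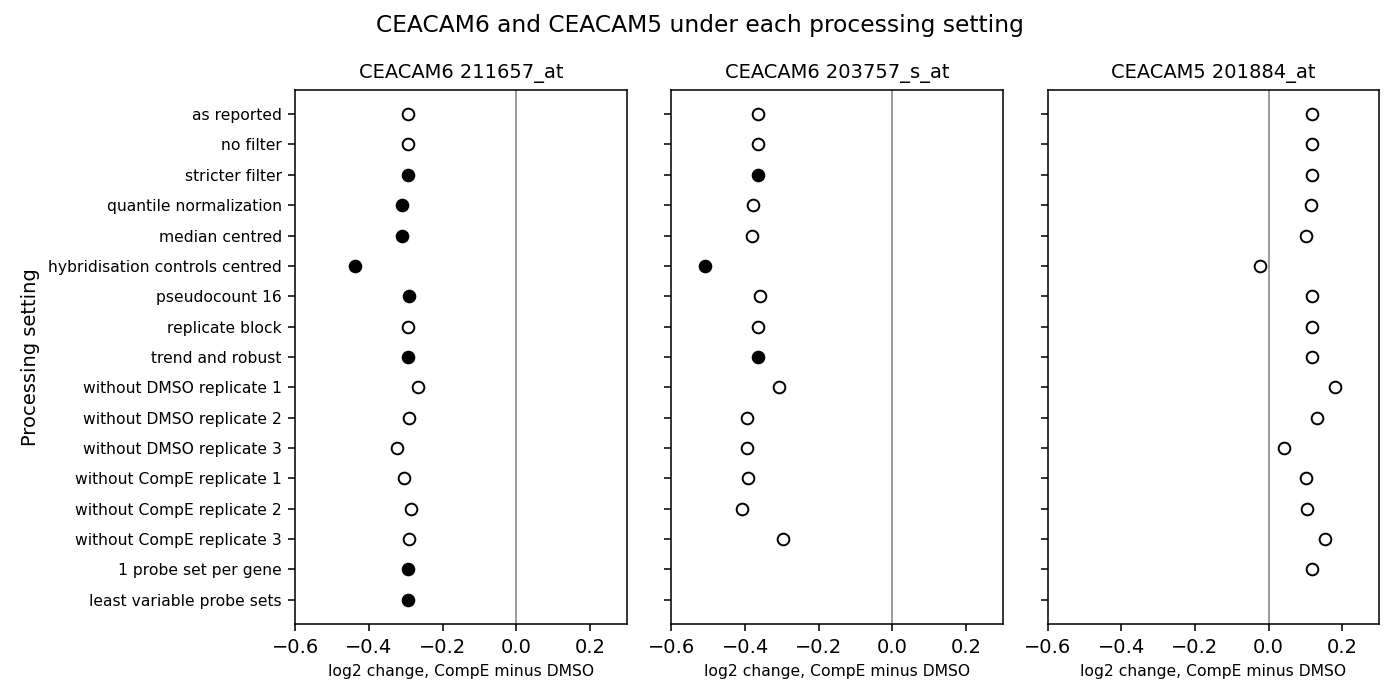
Log2 change, CompE minus DMSO, of both CEACAM6 probe sets and of the bright CEACAM5 probe set under each processing setting (rows); filled circles had an adjusted p under 0.05, and a missing circle means that the probe set was not tested in that setting. CEACAM6 stays left of 0 throughout, filled in 8 alternatives for 211657_at and in 3 for 203757_s_at, whereas CEACAM5 is never filled and lies at -0.02 once.

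Whether CEACAM6 and CEACAM5 changed unequally was examined within arrays, which removes any factor common to a whole array. Scaling that depends on the brightness of a probe set would remain. Only the shift between conditions has a meaning here, since the brightness of different probe sets cannot be compared. The log2 difference of CEACAM6 211657_at minus CEACAM5 201884_at was -0.61, -0.56 and -0.45 in DMSO and -0.97, -1.002 and -0.89 in CompE. All CompE arrays lie below all DMSO arrays. The shift was -0.41 log2 units, so that CEACAM6 relative to CEACAM5 was at 75.1% of its DMSO value (exact permutation p = 0.1, two-sided, the smallest possible; 0.55 after Benjamini-Hochberg adjustment over 22 pairs of probe sets). With 203757_s_at it was -0.48 (exact permutation p = 0.1). Of the 10 pairs of genes compared by their brightest probe sets, 3 had groups that did not overlap: CEACAM6 against CEACAM5, against CEACAM19 (-0.38) and against CEACAM1 (-0.24), each with an exact permutation p of 0.1. All 3 hold CEACAM6 211657_at, so they are not separate results. Among single genes by their brightest probe set, the groups of 32.2% did not overlap. The share over all pairs of genes was not measured. By this exact test no pair can pass with 3 arrays against 3.

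**Figure D4:**
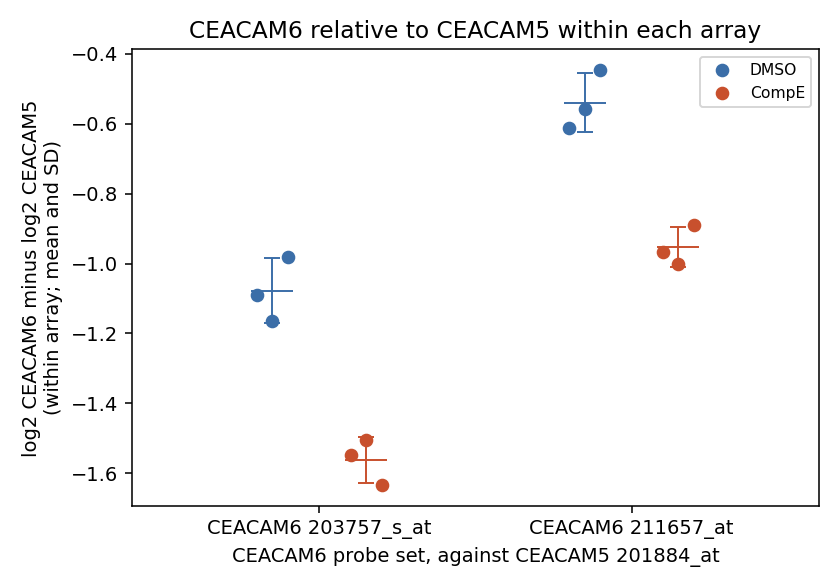
Log2 intensity of each CEACAM6 probe set minus that of CEACAM5 201884_at within each array, with the mean and SD of 3 DMSO (blue) and 3 CompE (orange) arrays. Both CEACAM6 probe sets shift downward in CompE relative to CEACAM5, by 0.48 log2 units for 203757_s_at and by 0.41 for 211657_at, with no overlap of the groups.

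CEACAM1, the transmembrane member that inhibits signalling through its tail, has 5 probe sets. By the Affymetrix naming convention, the suffix _x_at marks a probe set in which some probes match other sequences, and _s_at one whose probes are shared by several transcripts, which can include related genes; _at alone marks no such sharing. Of the 13 probe sets here, 7 end in _at, 4 in _s_at and 2 in _x_at, the last both assigned to CEACAM1. The signal of CEACAM1 211883_x_at and 211889_x_at may therefore hold transcripts of other CEACAM genes, and 203757_s_at of CEACAM6 may as well. The extent of such sharing was not measured.

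CEACAM1 211883_x_at read 345.2, 371 and 345.2 in DMSO and 357, 299 and 369.6 in CompE, with overlapping groups and a log2 change of -0.05 (adjusted p = 0.790 by limma). For 211889_x_at the values were 152, 183 and 119 in DMSO and 125, 149.9 and 150.4 in CompE (log2 change -0.08, adjusted p = 0.836 by limma). Of the 2 probe sets with no sharing mark, 209498_at read 96.0, 82.8 and 81.4 in DMSO and 83.2, 97.5 and 84.8 in CompE. Its log2 change was 0.03 with a 95% confidence interval of -0.21 to 0.27, and its groups overlap. Probe set 206576_s_at had 83.3, 75.4 and 56.3 in DMSO, a wide spread, and 58.9, 60.1 and 58.9 in CompE, so that DMSO replicate 3 lies below all CompE arrays (log2 change -0.25, adjusted p = 0.380 by limma). The other one with no sharing mark, 210610_at, averaged 35.3 in DMSO and 26.2 in CompE, below background in both. The 12 comparisons of change between probe sets of 1 gene included 10 pairs of CEACAM1 probe sets, and the groups overlapped in all 10.

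CEACAM7, a GPI-anchored protein of mature colonocytes, was not above background by any of its 3 probe sets. Probe set 206199_at, the only one past the filter, read 26.9, 46.6 and 28.6 in DMSO and 35.2, 29.5 and 34.5 in CompE. DMSO replicate 2 alone exceeds 45.7. The log2 difference was 0.00, with a 95% confidence interval of -0.55 to 0.55. Probe set 211848_s_at averaged 23.1 and 22.6, and 206198_s_at, the dimmest, averaged 4.49 in DMSO and 10.4 in CompE. Although the groups of 206198_s_at do not overlap, all its values are below background and no direction can be drawn from them.

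CEACAM19, the distant member, has the single probe set 230504_at. It read 110.6, 130.5 and 111 in DMSO and 119, 137 and 118 in CompE, above background on all arrays and with overlapping groups. The log2 change was 0.09, with a 95% confidence interval of -0.16 to 0.33 (limma adjusted p = 0.665).

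Most other members of the family that had a probe set of their own were not above background. CEACAM genes not named above and the pregnancy-specific glycoprotein genes (PSG), which lie in the same cluster and share its sequence, made a list of 19. Probe sets assigned to 1 gene alone represented 13 of them, and 7 got past the filter. By the mean of their brightest probe set over the 6 arrays, 5 lay above background (CEACAM3, CEACAM4, PSG3, PSG4 and PSG9). By limma none of the 7 passed (unadjusted p under 0.05: 0 higher, 1 lower), and their median log2 change was -0.04, beside 0.02 over all genes. Of the 14308 genes, each by its brightest probe set, 4.95% passed, 3.23% higher and 1.72% lower in CompE; at an unadjusted p under 0.05 there were 22.8%, of which 14% higher and 8.78% lower. The counts of the lists below read against the same shares. PSG4 had the smallest p: its probe set 208191_x_at, which may match other PSG genes, read 86.6, 69.7 and 60.5 in DMSO and 40.2, 43.7 and 51.2 in CompE (adjusted p = 0.0764 by limma). Its CompE mean of 45.0 is below the background of 45.7, so no fold is given. CEACAM3, a granulocyte receptor for bacteria and the next CEACAM gene after CEACAM6 on the chromosome, averaged 67.8 ± 2.71 and 57.9 ± 6.39 by its brightest probe set (SD, n = 3; adjusted p = 0.229 by limma). CEACAM8, a granulocyte surface marker, did not exceed 23.9 on any array.

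Genes of proteins reported to bind CEACAM molecules or to act beneath them made a list of 22, of which 15 were tested by limma. Of these 2 fell, 0 rose and 13 did not pass (unadjusted p under 0.05: 2 higher, 4 lower). Both members that fell were bright. LGALS3 encodes galectin-3, a lectin that binds the sugar chains of CEA and other glycoproteins. It read 5237, 5135 and 5204 in DMSO and 3205, 3196 and 3158 in CompE. The groups are far apart, at a log2 change of -0.70 ± 0.05 (SE, adjusted p = 0.00338 by limma). The call held whichever array was left out, but not with the replicate numbers as a block (adjusted p = 0.0715 by limma). S100A10, the partner of annexin A2 at the inner membrane, fell from 1815 ± 50.96 to 1137 ± 106 (SD, n = 3; log2 change -0.68, adjusted p = 0.0165 by limma). Leaving out any DMSO array or CompE replicate 1 ended that call (adjusted p up to 0.0717 by limma). So did the fit with no filter (0.0726) and that with the replicate block (0.101). The median of the list was -0.09, beside 0.02 over all genes.

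The machinery that builds and attaches the GPI anchor, on which CEACAM5, CEACAM6 and CEACAM7 depend, was represented by 30 tested genes. By limma none passed (unadjusted p under 0.05: 5 higher, 3 lower), and the median was 0.02, as over all genes. PIGM, a mannosyltransferase of anchor synthesis, had the smallest p (379 ± 3.997 in DMSO and 451 ± 21.05 in CompE, SD, n = 3; adjusted p = 0.0807 by limma). Other surface proteins with a GPI anchor moved in both directions: of 38 tested, 2 rose, 1 fell and 35 did not pass (unadjusted p under 0.05: 8 higher, 6 lower), with a median of 0.08. RGMB, a co-receptor for bone morphogenetic proteins, rose 1.99-fold. CD24, a small mucin-like adhesion protein of epithelium, rose 1.42-fold from 4665 ± 164 to 6610 ± 38.6 (SD, n = 3; adjusted p = 0.0112 by limma), and its 5 other tested probe sets gave log2 changes of 0.48 to 0.80. EFNA3, an ephrin ligand, fell by 0.52 log2 units from 772 ± 51.9 to 540 ± 51.8 (SD, n = 3; adjusted p = 0.0448 by limma). Leaving out DMSO replicate 2, DMSO replicate 3 or CompE replicate 1 ended the call of CD24 (adjusted p up to 0.0641), and leaving out any array ended that of EFNA3 (up to 0.129).

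Of 35 genes of epithelial adhesion tested by limma, 3 fell, 0 rose and 32 did not pass (unadjusted p under 0.05: 7 higher, 5 lower), with a median of 0.02. CDH17, the cadherin of intestinal epithelium, read 2757, 2719 and 2598 in DMSO and 2199, 2174 and 2136 in CompE (log2 change -0.31, adjusted p = 0.0405 by limma). PKP3 and PKP2, plakophilins of desmosomes, fell by 0.37 and 0.41 log2 units. The other tested probe set of each, at -0.47 and -0.30, did not pass (adjusted p = 0.0715 and 0.245 by limma). Leaving out any array ended all 3 calls (adjusted p up to 0.135, 0.135 and 0.141 for CDH17, PKP3 and PKP2). EPCAM and CDH1, the general epithelial adhesion genes, were among those that did not pass.

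CDH17 was also the gene whose pattern lay nearest to that of CEACAM6. Profiles were compared as log2 intensity minus the gene's own mean over the 6 arrays, and likeness was measured as the root mean square difference from 211657_at over 14307 other genes. CDH17 differed by 0.0168 log2 units, TRIB3, a stress-induced pseudokinase gene, by 0.0198, and EVA1C, a gene of a heparin-binding membrane protein, by 0.0210. Their changes were -0.31, -0.30 and -0.27, beside -0.29 for CEACAM6. Nearest to CEACAM5 201884_at were STEAP2 (0.0237), PTPRB (0.0249) and MAGED1 (0.0264), with log2 changes of 0.13, 0.10 and 0.14 and adjusted p-values of 0.338 to 0.610 by limma; on the hybridisation controls all 3 signs turned, as did that of CEACAM5. These are descriptions over 6 arrays that share a condition and a scaling.

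Transcription factors named in the literature on CEACAM promoters or on Notch in this tissue made a list of 23, of which 21 were tested: 3 rose, 1 fell and 17 did not pass, with a median of 0.07 (unadjusted p under 0.05: 5 higher, 2 lower). CDX2, the intestinal homeobox factor, rose 1.35-fold from 539 ± 14.1 to 727 ± 15.9 (SD, n = 3; adjusted p = 0.0174 by limma), and its other probe set gave 0.57. Leaving out any array ended the call of CDX2 (adjusted p up to 0.0785). ATOH1, the secretory lineage factor, rose and HES1, the Notch-induced repressor, fell by far larger amounts (log2 changes 2.61 and -1.49). KLF4, named after its values were seen, was the third that rose (0.32, adjusted p = 0.0417 by limma). Its call ended without any 1 of the arrays (adjusted p up to 0.137) and on the hybridisation controls (0.155). USF1 and USF2, factors that bind E-boxes, did not pass. Whether they bind the printed stretches in these cells was not measured.

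**Figure D5:**
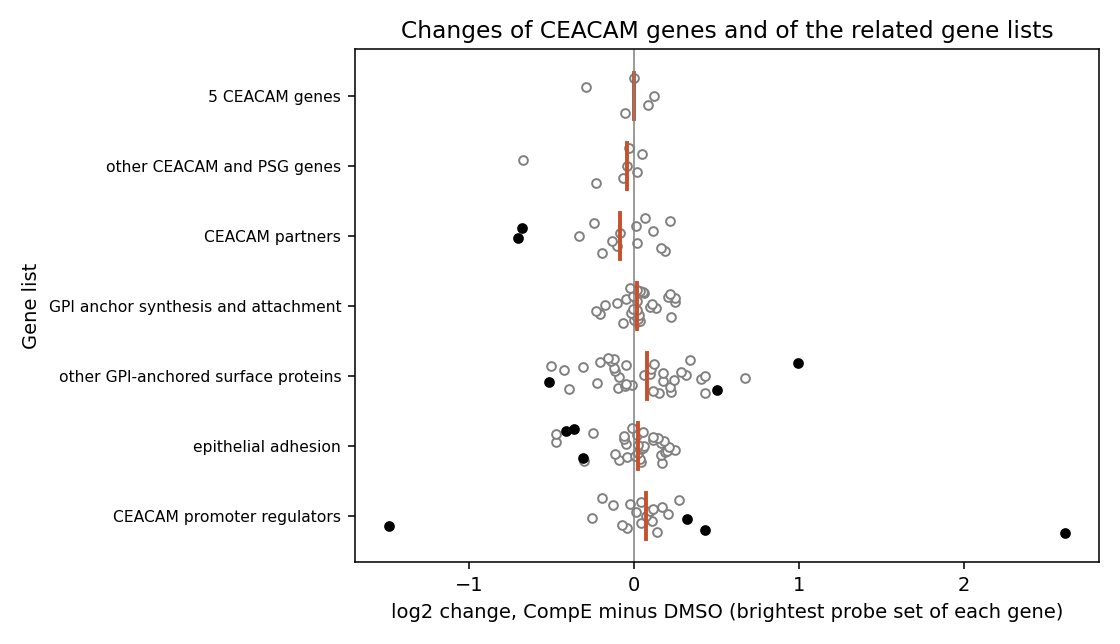
Log2 change, CompE minus DMSO, of the brightest probe set of each tested gene (circles; filled where the adjusted p was under 0.05) for the 5 CEACAM genes and 6 gene lists, with a bar at each median. The 5 CEACAM genes lie between -0.29 and 0.12 with none filled, while LGALS3 and S100A10 are the filled points of the partner list near -0.70.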

How the data were processed

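RNA of 6 LS174T cultures was labelled from the 3' end and hybridised to Affymetrix U133 Plus 2 arrays, per the labels; sample titles gave the groups. The authors deposited linear intensities, 1 per probe set and array, scaled between arrays with dChip per the series design text. Its version and background model: not given in the sources used here. Values were raised to at least 1 before log2. The 62 control probe sets, probe sets with several genes or none in the platform annotation of 2016, and those in the lowest 40% of mean log2 value (below 24.4) were left out, so that 26962 were tested. The brightest probe set stood for a gene in the lists and in the comparison of patterns. Symbols were updated through Entrez identifiers (41043 matched). CompE was compared with DMSO by limma 3.58.1 in R 4.3.3 (lmFit, eBayes, two-sided), with Benjamini-Hochberg adjustment. Fold changes are 2 to the power of differences of mean log2 values and understate changes of dim genes. Precision is limited by the number of arrays (median standard error 0.09 log2 units). The script was tested on simulated data. Promoter stretches came from RefSeq and were aligned with Biopython 1.88. The array files name no build, so gene order alone was taken from the gene table.

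The genes and lists were chosen with earlier results of these data known. Genes were named by rule: every CEACAM probe set, up to 3 of each list that passed with the smallest p (or the smallest p alone), the 3 nearest patterns to CEACAM6 and CEACAM5, and chromosomal neighbours. The neighbours of CEACAM1 and CEACAM19, and the other neighbour of CEACAM6 and of CEACAM7, had no probe set with 1 gene.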

Additional observations from a re-analysis of the deposited data

How the results depend on the processing

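With 3 arrays per condition, the 95% confidence interval of the log2 change ran from -0.10 to 0.33 for the bright CEACAM5 probe set, and the probe sets of CEACAM7, CEACAM1 210610_at and CEACAM5 217291_at were below background in both groups. The cause of each shift between settings was not tested. Counts of all probe sets that rose and fell were 734 and 419 as reported, 147 and 69 with no filter, 1502 and 1020 with the stricter filter, 375 and 1612 centred on hybridisation controls, 1936 and 1406 with a trend and robust eBayes, and 2449 and 1732 among the 10896 least variable. Without 1 array they ran from 123 to 265 and from 67 to 141. CEACAM probe sets that fell numbered 2 with the stricter filter, with hybridisation control centring and with trend and robust eBayes, and 1 each with quantile normalization, median centring, a pseudocount of 16, 1 probe set per gene and the least variable set; with no filter, under the replicate block and without any 1 array the number was 0, as it was for rises throughout.

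The labels do not say whether replicate numbers shared by the groups pair the samples. Same-numbered arrays deviated together at r = 0.0157, -0.0853 and -0.0297, and differently numbered ones at up to 0.0996. With 3 arrays per condition these values cannot decide whether cultures were paired, and the main fit used no pairing. With the replicate block 18 probe sets rose and 13 fell, and CEACAM6 211657_at had an adjusted p of 0.174 by limma; not every array correlated best with its own number.

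Signs of CEACAM probe sets turned only for probe sets that passed under no alternative. CEACAM1 209498_at gave -0.00030 with quantile normalization, -0.11 on hybridisation controls and -0.042 to 0.10 without 1 array. Without 1 array CEACAM1 211883_x_at ran from -0.11 to 0.039 and 211889_x_at from -0.24 to 0.071. On hybridisation controls CEACAM19 gave -0.056, CEACAM5 201884_at -0.024 and CEACAM7 206199_at -0.14. CEACAM7 206199_at also gave -0.014 with quantile normalization, -0.016 with median centring, -0.0083 with the pseudocount and -0.15 to 0.25 without 1 array. CEACAM6 minus CEACAM5 stayed between -0.45 and -0.37 without 1 array, and was -0.41 with the pseudocount. Against the dim CEACAM5 probe set it was -0.86, a value that supports nothing, since that probe set was below background in both groups. Of the 22 other genes named from lists or as nearest patterns, 3 turned sign, all on hybridisation controls: STEAP2 (-0.0087), PTPRB (-0.044) and MAGED1 (-0.0014). Over the alternatives of these 22 genes a call was lost 70 times and gained 14 times.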
